A study of Arabidopsis thaliana with 24 samples.

Results

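The plastid-encoded genes of Arabidopsis thaliana lie on the chloroplast's own small chromosome, and were taken as every gene of the deposited count tables whose identifier begins with ATCG, 133 of 33243. Total RNA-seq gave their counts in dry mature seeds and unopened flower buds of 4 genotypes, with 3 libraries per group and 24 in all. The genotypes, all in the Col-0 background, are labelled heso1-4 urt1-1, urt1-1, heso1-4 and WT, where urt1-1 and heso1-4 are each 1 T-DNA insertion line in the gene of a terminal uridylyltransferase, an enzyme that adds uridines to RNA 3′ ends. Each replicate pooled material of at least 5 plants, seeds being taken 8 weeks and flower buds 2 weeks after flowering began. The extraction method differed between seeds and flowers, and its effect cannot be told apart from that of the tissue.

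Plastid genes are known to be transcribed by a pair of enzyme systems. The plastid-encoded polymerase has its core subunits encoded by rpoA, rpoB, rpoC1 and rpoC2, needs nuclear-encoded sigma factors to find its promoters, and is known for transcribing most photosynthesis genes. The nuclear-encoded phage-type polymerases are known for transcribing the rpoB operon and housekeeping genes such as accD and clpP. Many plastid genes are cotranscribed with their neighbours, and the products form photosystem I (psa), photosystem II (psb), the cytochrome b6f complex (pet), the ATP synthase (atp), the NADH dehydrogenase-like complex (ndh), the Rubisco large subunit (rbcL), ribosomes (rps, rpl) and the plastid polymerase (rpo). URT1 is known for acting on mRNAs in the cytosol, outside the plastid.

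The gene that dominates these data is psbA (ATCG00020, chrC:383-1444, minus strand), which encodes the D1 reaction centre protein of photosystem II. Sequences are from the RefSeq plastid genome. In the 300 bases before each deposited gene start, TTGACA followed after 16 to 19 bases by TATNNT, the letters known for promoters of the plastid-encoded polymerase, was searched on both strands before the 93 members outside the inverted repeat. It was found on the gene's own strand before psbA and before trnK (ATCG00030, the neighbouring gene of a lysine tRNA), which is 2.15% of the windows, and on the opposite strand before 1 more. The matches are shown with the searched letters in capitals, since psbA and trnK differ in the tissue comparison:
psbA, chrC:1530-1559, minus strand, 85 bases before the deposited start: TTGACAtggctatataagtcatgtTATACT
trnK, chrC:4458-4486, minus strand, 110 bases before the deposited start: TTGACAacagtgtatggaccaaaTATAAT
Spacers were 18 and 17 bases. A match is a description of these letters and not a mapped start site, and the absence of one says nothing about which polymerase acts.

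Part of the plastid genome could not be measured. The sequence holds an inverted repeat of 26264 bases, chrC:84171-110434 and chrC:128215-154478, and 36 members lie wholly inside it, each with an identical copy. The first bases of rps7 (a small ribosomal subunit protein), the same in both copies, are longer than the 50-base reads:
rps7, ATCG00900, chrC:97478-97945, minus strand: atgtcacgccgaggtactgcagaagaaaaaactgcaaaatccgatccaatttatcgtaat
rps7, ATCG01240, chrC:140704-141171, plus strand: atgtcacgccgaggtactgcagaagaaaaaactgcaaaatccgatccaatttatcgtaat
These 36 members together held 0.00416% to 0.0138% of plastid counts in seed libraries and 0.00848% to 0.0134% in flower libraries. The library kit is of a kind that removes ribosomal RNA. Of the 36, 10 in seeds and 6 in flowers stood at 0 in every library. The set holds all 7 members classed as ribosomal RNA genes and 14 of the 36 classed as tRNA genes. It also holds both copies of ycf2, a large essential reading frame, and 3 unclassified members. The levels of these RNAs were thus not determined. Members without a RefSeq match were left unclassified, so the class counts of RNA genes can fall short. Partial overlap with the repeat held for 4 members and 93 lay outside it. The filter on low counts was passed by 100 of all 133 members among seed libraries, by 111 among flower libraries and by 112 over both tissues, a filter that a member can pass through 1 group alone.

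Library totals ran from 19304121 to 38853305 counts in seeds and from 23787015 to 39797391 in flowers. URT1 (AT2G45620) stood at 2.39 to 3.80 counts per 1000000 TMM-scaled counts (CPM) in seed libraries carrying urt1-1, against 87.1 to 110 in the others. HESO1 (AT2G39740) was higher and not lower in seed libraries labelled heso1-4 or heso1-4 urt1-1, at 46.8 to 187 CPM, against 0.107 to 0.584 in the others. These counts set the labelled libraries apart, but a loss of HESO1 cannot be read from them. Directions for those libraries thus rest on the label. In flowers URT1 stood at 1.89 to 2.79 CPM in libraries carrying urt1-1, against 42.7 to 53.8 in the others, and HESO1 at 46.3 to 854 CPM in libraries labelled heso1-4 or heso1-4 urt1-1, against 11.7 to 14.7 in the others. The tissue labels fit their markers: 7 dry seed genes summed to 64630 to 132700 CPM in seed libraries and 3.54 to 8.18 in flower libraries, and 6 floral genes to 0.988 to 5.32 CPM in seed libraries and 360 to 590 in flower libraries, with 1 of the 6 at 0 in the seeds labelled heso1-4. Seed replicate 3 labelled heso1-4 stood apart, with 18.6% of its counts on AT2G41310 and AT1G15405, against 5.82% to 8.82% in the other seed libraries.

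Dry seeds held a far smaller plastid share of counts than flower buds, and most of it was psbA. Plastid genes took 6.92%, 7.52% and 7.76% of all counts in the 3 WT seed libraries, against 20.9%, 26.9% and 25.3% in the 3 WT flower libraries. Over all genotypes the share was 5.49% to 9.38% in seeds and 20.9% to 26.9% in flowers. The ranges of the tissues are far apart, and fewer plastids per cell and less RNA per plastid cannot be told apart in bulk RNA. Without psbA the plastid share was 1.98% to 2.74% in seeds and 14.2% to 18.9% in flowers.

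**Figure D1:**
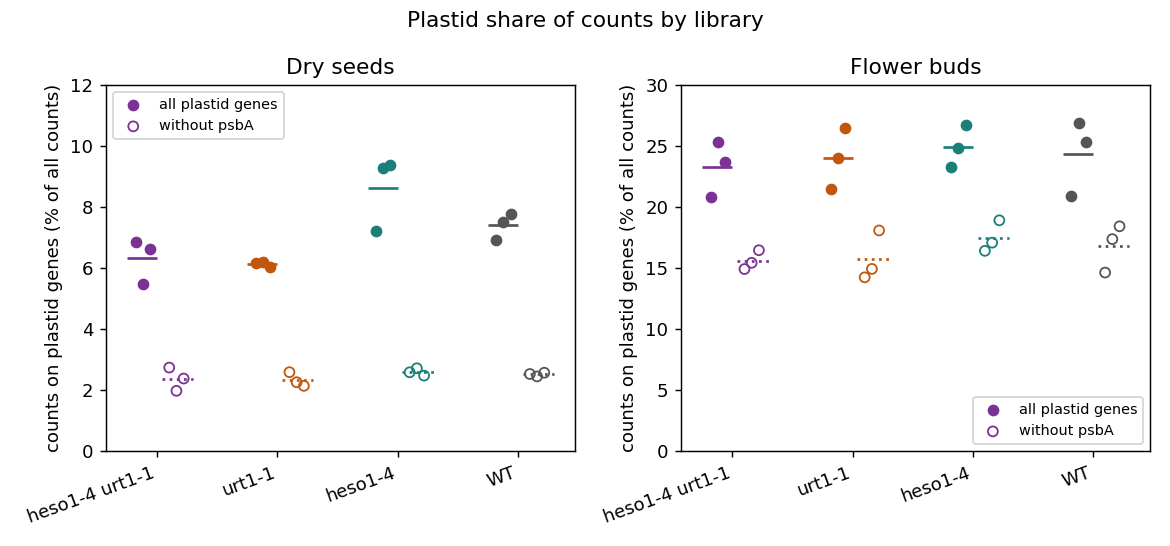
Counts on plastid genes in percent of all counts, by library (points) and group mean (lines), with all members (filled) and without psbA (open), in dry seeds and flower buds. With psbA the 6 seed libraries carrying urt1-1 lie at 5.49% to 6.87% and the other 6 at 6.92% to 9.38%, and without psbA they overlap.

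As shares of plastid mRNA (counts on protein-coding plastid genes), psbA made up 65.7%, 69.5% and 68.7% in WT seeds, against 31.9%, 37.6% and 29.6% in WT flowers. The gene rbcL (ATCG00490, chrC:54958-56397, plus strand), which encodes the CO2-fixing subunit of Rubisco, made up 2.00%, 1.30% and 0.760% in WT seeds, against 21.8%, 22.4% and 24.3% in WT flowers. There were thus 32.9, 53.4 and 90.4 psbA counts for each rbcL count in WT seeds and 1.46, 1.68 and 1.22 in WT flowers. Per kilobase of gene, psbA had the highest mean count of all members in both tissues, while rbcL ranked second in flowers and 14th in seeds. Behind psbA in seeds came rps14 (a small ribosomal subunit protein), psbC (a photosystem II antenna protein) and psaB (a photosystem I core protein).

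**Figure D2:**
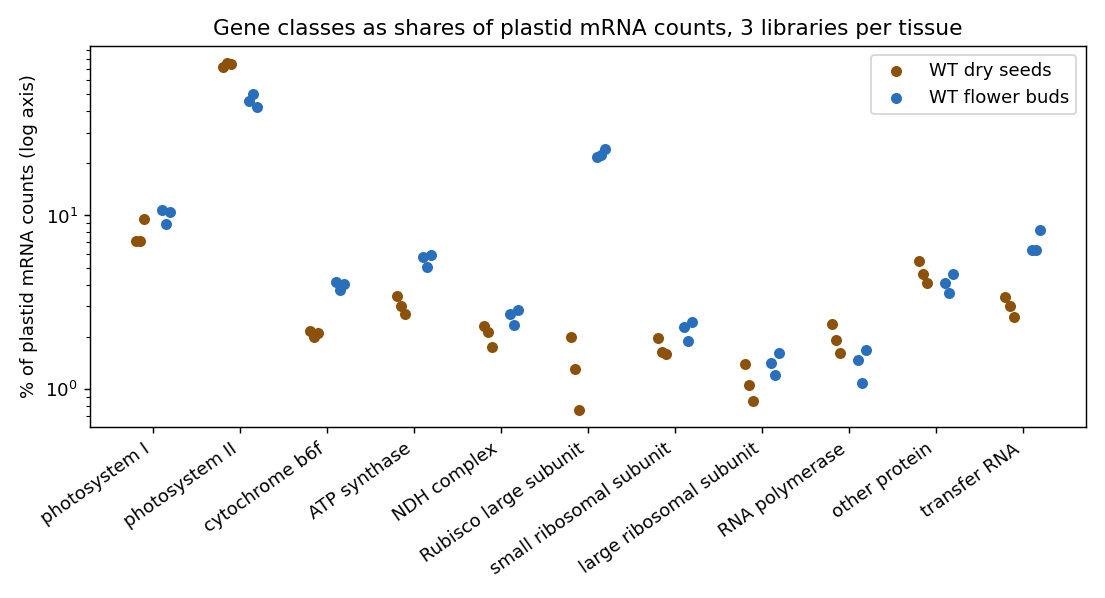
Counts of each gene class in percent of plastid mRNA counts on a log axis, one point per WT library, dry seeds left of flower buds. The photosystem II points of seeds lie above those of flowers, the Rubisco, ATP synthase, cytochrome b6f, NADH dehydrogenase-like and transfer RNA points below them, and those of the other classes overlap. The total includes psbA, and without psbA only Rubisco of these classes stays lower in seeds. Photosystem II and transfer RNA shares then overlap. Photosystem I, ATP synthase, cytochrome b6f and NADH dehydrogenase-like shares are then higher in every seed library than in any flower library. So are those of ribosomal protein, polymerase and remaining protein genes. ATP synthase genes then make up 8.636% to 10.06% in seeds against 8.086% to 8.496% in flowers, and photosystem I genes 20.75% to 30.55% against 14.26% to 15.77%.

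Between WT seeds and WT flowers, edgeR called 97 of 112 members at an adjusted p under 0.05, 2 higher and 95 lower in seeds. Over all 23557 genes tested 80.6% were called, 7748 higher and 11233 lower, so the members' share called is close to the background and the members differ from it in direction. Of the 112, 12 did not pass the filter among seed libraries alone, and the 7 of these called lower entered through a tissue in which they were high. The 100 that passed in each tissue alone gave 2 higher and 88 lower. The members' median log2 fold change was −1.63 and that of all genes −0.56. The offset of the members' median from that of all genes was −1.06 and ran from −1.19 to −0.85 over the scalings and models tried, while total-count scaling moved the median of all genes to −1.38 and scaling to plastid mRNA moved it to 0.26. The split of members was 0 higher and 103 lower with total-count scaling (4332 and 14370 of all genes) and 5 higher and 62 lower with scaling to plastid mRNA (10025 and 8121 of all genes).

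Of the 45 photosynthesis genes 43 fell in seeds, with a median of −1.65. Levels are given as CPM on the joint scale of both tissues. rbcL stood at 1653, 1236 and 830.5 CPM in WT seeds, against 30880, 43470 and 43360 in WT flowers, a change of −4.98 ± 0.38 (log2 ± SE, edgeR adjusted p = 1.52e-10). The 4 nuclear genes of the Rubisco small subunit also fell, with log2 fold changes from −11.74 to −6.12. Next came psbH (ATCG00710), a small photosystem II subunit, at 51.0, 53.8 and 77.9 CPM in WT seeds, against 591.7, 728.7 and 711.4 in WT flowers (−3.47 ± 0.26, edgeR adjusted p = 1.51e-10). petN (ATCG00210), a small subunit of cytochrome b6f, stood at 35.97, 32.89 and 25.01 CPM in WT seeds, against 241.2, 365.7 and 303.7 in WT flowers (−3.28 ± 0.29, edgeR adjusted p = 2.17e-09). In all 3 genes every seed library lay below every flower library.

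Of the 15 photosystem II genes 14 fell, with a class median of −2.55, and the exception was psbA. psbA stood at 54320, 65950 and 75070 CPM in WT seeds, against 45150, 72980 and 52820 in WT flowers, ranges that overlap (0.19 ± 0.30, edgeR adjusted p = 0.558). psbF, a cytochrome b559 subunit and the second of its class in counts per kilobase, stood at −2.56 ± 0.28. The 5 photosystem I genes fell with a median of −1.73, psaA and psaB, its core proteins, at −1.07 ± 0.27 and −1.11 ± 0.26. All 6 cytochrome b6f genes fell (median −1.57), and all 6 ATP synthase genes fell within a narrow band from −1.84 (atpH) to −1.56. Of 12 NADH dehydrogenase-like genes 11 fell (median −1.39), ndhD standing at −1.11 ± 0.16 and ndhE at −1.52 ± 0.18, and the exception was a copy of ndhB in the repeat.

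Genes of the plastid's own gene expression were less uniform. Of the 23 ribosomal protein and polymerase genes that passed the filter in each tissue alone, 18 fell and 1 rose, with a median of −0.99. rps4 (ATCG00380), a small subunit protein, had the smallest p of all members, with 92.4, 84.0 and 85.1 CPM in WT seeds against 387.6, 412.1 and 466.5 in WT flowers (−2.28 ± 0.13, edgeR adjusted p = 2.2e-12). rps14 stood at −1.12 ± 0.23, rpl32 at −1.15 ± 0.26 and rpl36 at −0.99 ± 0.24, while rps12 (ATCG00065, the first exon of a small subunit protein gene) stood at −0.19 ± 0.13 and was not called. Of the polymerase genes only rpoA fell (−0.94 ± 0.24). rpoC1, rpoC2 and rpoB stood at −0.21 ± 0.18, −0.25 ± 0.20 and −0.36 ± 0.18 (edgeR adjusted p = 0.278, 0.252 and 0.0763), and turned to 0.64, 0.60 and 0.48 with scaling to plastid mRNA, where rpoA stood at −0.07.

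The genes called higher in seeds were clpP and rpl20, neighbours on the minus strand with the first exon of rps12 between them. clpP (ATCG00670, chrC:69910-71882), the plastid-encoded subunit of the Clp protease, stood at 2644, 2507 and 2592 CPM in WT seeds, against 1328, 1670 and 1710 in WT flowers (0.72 ± 0.15, edgeR adjusted p = 2.35e-04). rpl20 (ATCG00660, chrC:68512-68865), a large ribosomal subunit protein, stood at 283.5, 289.6 and 312.6 CPM in WT seeds, against 149.0, 171.4 and 217.0 in WT flowers (0.72 ± 0.14, edgeR adjusted p = 1.29e-04). Every seed library lay above every flower library for both. With total-count scaling both stood at −0.10 and were not called (adjusted p = 0.592 and 0.638), against a median of all genes of −1.38. accD (ATCG00500), a fatty acid synthesis gene named with clpP above, fell, at −1.56 ± 0.14.

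Of the 20 tRNA genes that passed the filter in each tissue alone, 19 fell. A further 6 passed over both tissues but not among seed libraries, so that their place below flowers is no result. trnS (ATCG00090) stood at 21.4, 20.5 and 20.3 CPM in WT seeds, against 193.9, 290.8 and 188.7 in WT flowers (−3.44 ± 0.26, edgeR adjusted p = 1.5e-10). trnG (ATCG00100) and trnL (ATCG00400), the tRNA genes with the most counts per kilobase, stood at −2.54 ± 0.27 and −2.17 ± 0.31. They contain introns, as does trnK (−1.93 ± 0.21), whose intron holds the splicing factor gene matK (−1.87 ± 0.21), so these counts cover whole gene spans and trnK and matK share counts. How far these counts reflect mature tRNAs was not tested.

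Taking each gene as a share of plastid mRNA sets aside the tissues' different plastid content. The total includes psbA, at a mean of 67.9% in WT seeds and 33.0% in WT flowers. Shares of all other genes are thereby lowered in seeds, and a place below flowers holds only relative to this total. Single-gene shares without psbA are not given here. Of 92 members with a mean of at least 10 counts in both tissues, 8 had all 3 WT seed libraries above all 3 WT flower libraries, 57 had them below and 27 overlapped. For counts of any gene per plastid mRNA count, 58.3% of 16147 genes lay above and 21.0% below in the same way. The members above were clpP (2.98-fold in seeds over flowers), rpl20 (2.96-fold), the copy of ycf1 at ATCG01000 (2.93-fold, at 2.05, 2.59 and 1.81 CPM in seeds and on the opposite strand to ndhF), psbA (2.06-fold), rps12 (1.58-fold), rpoC1 (1.56-fold), rpoC2 (1.52-fold) and rpoB (1.40-fold). A repeat copy of the 23S ribosomal RNA gene, ATCG01180, had a higher ratio, but at 30, 10 and 2 counts in WT seeds and 14, 5 and 22 in WT flowers its libraries overlapped. The largest falls in share were rbcL (16.9-fold lower in seeds), psbH (6.29-fold), trnS ATCG00090 (5.95-fold) and petN (5.24-fold). With 3 libraries against 3 an exact permutation test cannot go below 0.1, and no p is given for these shares.

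**Figure D3:**
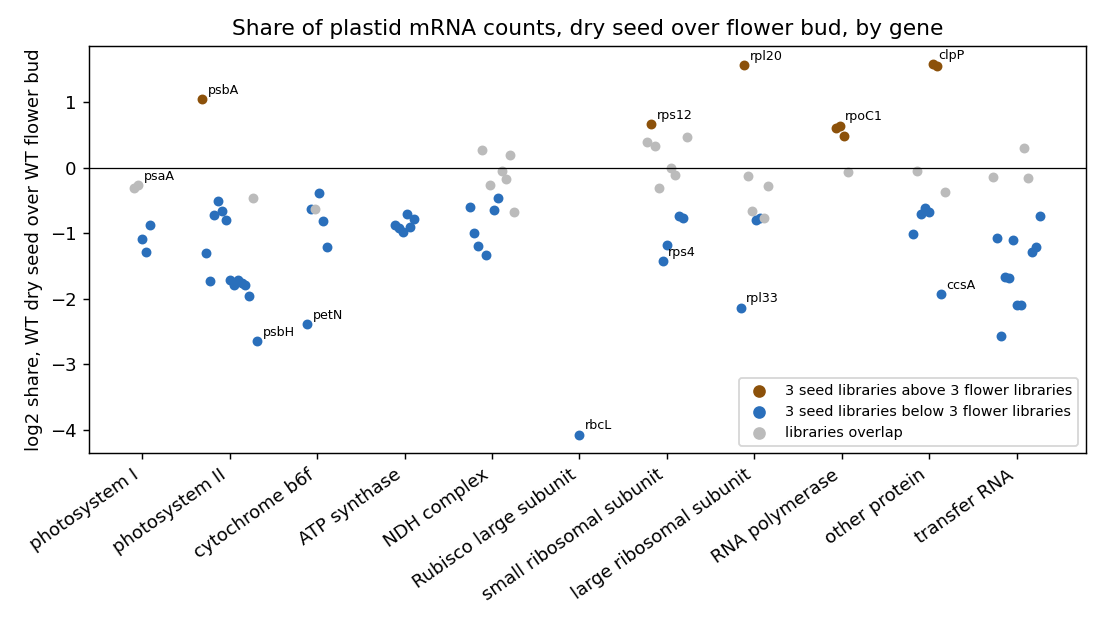
Log2 ratio of each gene's mean share of plastid mRNA counts, WT dry seed over WT flower bud, by class, for members with at least 10 mean counts in both tissues; colour gives whether the 3 seed libraries lay above, below or among the 3 flower libraries. psbA stands at 1.04 apart from the other photosystem II genes, rbcL at −4.08 is lowest, and the 6 ATP synthase genes lie close together. The total includes psbA, which lowers the other genes' ratios.

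Changes of share, again with psbA in the total, are given next for runs of neighbouring genes, chosen after their values were seen. rpoB, rpoC1 and rpoC2, adjacent on the minus strand, stood at 0.48, 0.64 and 0.60 (log2 ratio of shares), and rps2 beyond them at 0.33 with overlapping libraries. clpP, rps12 and rpl20 stood at 1.57, 0.66 and 1.57. psbE, psbF, psbL and psbJ, adjacent minus-strand genes of photosystem II, lay between −1.79 and −1.72. psbB, psbT and psbH, adjacent on the plus strand, stood at −1.79, −1.96 and −2.65, while petB and petD, which follow them, stood at −0.82 and −1.21 and psbN, on the opposite strand between psbT and psbH, at −0.47. The neighbours of clpP and rpl20 on the other strand, rpl33 and rps18, stood at −2.14 and −1.18. trnK, beside psbA and with the other promoter match, stood at −1.08.

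**Figure D4:**
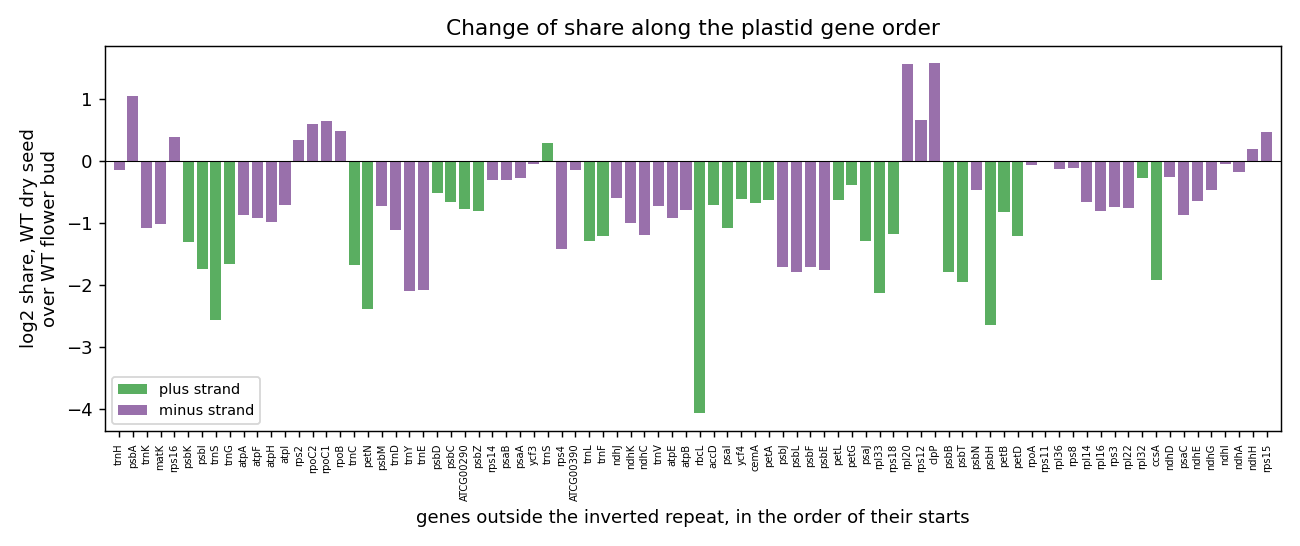
Log2 ratio of mean share of plastid mRNA counts, WT dry seed over WT flower bud, for members outside the inverted repeat in the order of their starts, coloured by strand. The rpoC2, rpoC1, rpoB block and the rpl20, rps12, clpP block lie above 0, and psbJ to psbE and psbB to psbH lie below −1.5 apart from psbN. The total includes psbA, which lowers the other genes' ratios.

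Nuclear genes of the transcription machinery also differed between the tissues, with values on the scale where the median of all genes is −0.56. Of 6 sigma factor genes 5 fell in WT seeds, with a median of −2.32, where 80.6% of all genes were called and 11233 of 23557 fell. The lowest was SIG1 (SIGA) at −4.06 ± 0.41, and SIG5 (SIGE) stood at 0.33 ± 0.56 and was not called. Both phage-type polymerase genes rose, RPOTp (AT2G24120) by 0.93 ± 0.15 and RPOTmp (AT5G15700) by 1.56 ± 0.16 (edgeR adjusted p = 1.25e-05 and 2.02e-08). Of 12 genes of polymerase-associated proteins 2 rose, 3 fell and 7 were not called. Of 10 genes of plastid RNA stability and processing 4 rose and 5 fell, from −7.68 ± 0.43 for CSP41A, an RNA-binding protein, to 1.94 ± 0.12 for the exoribonuclease gene RNR1 (AT5G02250). Nuclear green tissue genes moved with the tissue, 5 of them summing to 32.6 to 70.7 CPM in seed libraries and 4727 to 8367 in flower libraries, and their part in the plastid values was not tested.

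Within tissues the question was whether either insertion alters plastid RNA. In seeds, libraries carrying urt1-1 had a smaller plastid share than those without it. The share was 6.87%, 5.49% and 6.61% in libraries labelled heso1-4 urt1-1 and 6.18%, 6.21% and 6.03% in urt1-1, against 7.21%, 9.29% and 9.38% in the libraries labelled heso1-4 and 6.92%, 7.52% and 7.76% in WT. No library with urt1-1 reached any library without it. The means were 6.23% ± 0.48 with and 8.01% ± 1.07 without (SD, n = 6 each), a difference of −1.79 points with p = 0.00216 in a two-sided exact permutation test, the smallest 6 against 6 libraries can give, and 0.00864 adjusted over 4 such tests. The lower share of urt1-1 against WT was known beforehand, rests on libraries that are part of this test, and is not independent support. Libraries were permuted freely, without regard to replicate number or the heso1-4 label.

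The difference lay mostly in psbA. psbA took 3.51% to 4.23% of all counts in the 6 seed libraries with urt1-1 and 4.39% to 6.91% in the 6 without. The plastid share without psbA was 2.35% ± 0.28 with and 2.55% ± 0.095 without urt1-1, ranges that overlap (−0.21 points, exact permutation p = 0.126). With TMM-scaled counts as the denominator the difference of the whole share was −2.73 points (exact permutation p = 0.00649). Without seed replicate 3 labelled heso1-4 it was −1.51 points with the same smallest p for that design, 0.00216.

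The other share comparisons were not past the threshold. In seeds the share was 7.48% ± 1.56 in libraries labelled heso1-4 or heso1-4 urt1-1 and 6.77% ± 0.75 in the others (exact permutation p = 0.34). In flowers it was 23.6% ± 2.16 with and 24.7% ± 2.26 without urt1-1 (exact permutation p = 0.429), and 24.1% ± 2.01 in libraries labelled heso1-4 or heso1-4 urt1-1 and 24.2% ± 2.52 in the others (exact permutation p = 0.965).

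Whether single plastid genes passed the test in seeds with against without urt1-1 depended on the model. edgeR without a replicate block called 0 of 100 members, where 0.256% of all genes were called. Of the members 30 had an unadjusted p under 0.05, as did 2801 of all 17939 genes. With the replicate number as a block edgeR called 16, all lower and 14 of them photosynthesis genes, among them ndhC, psbA and psaA (edgeR adjusted p = 0.00793, 0.00884 and 0.0147), and 1128 of all genes. DESeq2 called 10, all lower: psbA, psbZ, psbN, psaC, petB, ndhC, ndhJ, ndhK, trnS ATCG00090 and the unclassified member ATCG00290. Its calls over all genes are given in the last section. edgeR called 7 without seed replicate 1 labelled heso1-4. Calls over all genes in that fit are not given, so these 7 cannot be set against a background. The members' median was −0.21 while that of all genes was near 0, and 92 of 100 lay below 0. Total-count scaling gave a median of −0.06 for members and 0.14 for all genes, and scaling to plastid mRNA turned the members to 0.28 with all genes at 0.50, so the members' offset from all genes was −0.21 in each. The smallest p was that of ndhC (ATCG00440), a subunit of the NADH dehydrogenase-like complex, at 24.31, 19.96 and 20.89 CPM in libraries labelled heso1-4 urt1-1 and 18.8, 19.7 and 20.9 in urt1-1, against 24.32, 30.5 and 30.5 in the libraries labelled heso1-4 and 24.8, 28.4 and 26.4 in WT. The highest library with urt1-1 lay just below the lowest without it (−0.41 ± 0.08, edgeR adjusted p = 0.0523, and 0.0265 to 0.148 with single libraries left out). Its neighbours ndhK and ndhJ, on the same strand, stood at −0.37 ± 0.09 and −0.33 ± 0.08 (edgeR adjusted p = 0.0818 each). psbA stood at −0.66 ± 0.19 (edgeR adjusted p = 0.136), with 31120 to 42140 CPM with and 41380 to 96380 CPM without urt1-1, which overlap through 1 WT library. Of the 8 members above 0, the smallest p belonged to rpl2 ATCG00830 (0.13 ± 0.23) and rpl22 (0.06 ± 0.21), large ribosomal subunit genes, and both turned negative without seed replicate 3 labelled heso1-4.

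By class, on the TMM scale, the 45 photosynthesis genes all lay below 0 with a median of −0.35, from −0.66 (psbA) to −0.01, and 0 were called without the block and 14 with it. Photosystem I had a median of −0.45, cytochrome b6f −0.42, photosystem II −0.37, the NADH dehydrogenase-like complex −0.24 and the ATP synthase −0.21. Of 23 ribosomal protein and polymerase genes 16 lay below 0 with a median of −0.03, among them rpoC1 at −0.01 ± 0.10, rpoC2 at −0.03 ± 0.11 and rpoB at −0.06 ± 0.09. The gap between these groups leans on 1 library: without seed replicate 3 labelled heso1-4, 44 of 45 photosynthesis genes lay below 0 with a median of −0.26, and 23 of 24 gene expression genes with a median of −0.12. That library had the highest psbA share of plastid mRNA, 75.6%, and the lowest shares of large ribosomal subunit and polymerase genes, 0.387% and 0.843%.

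**Figure D5:**
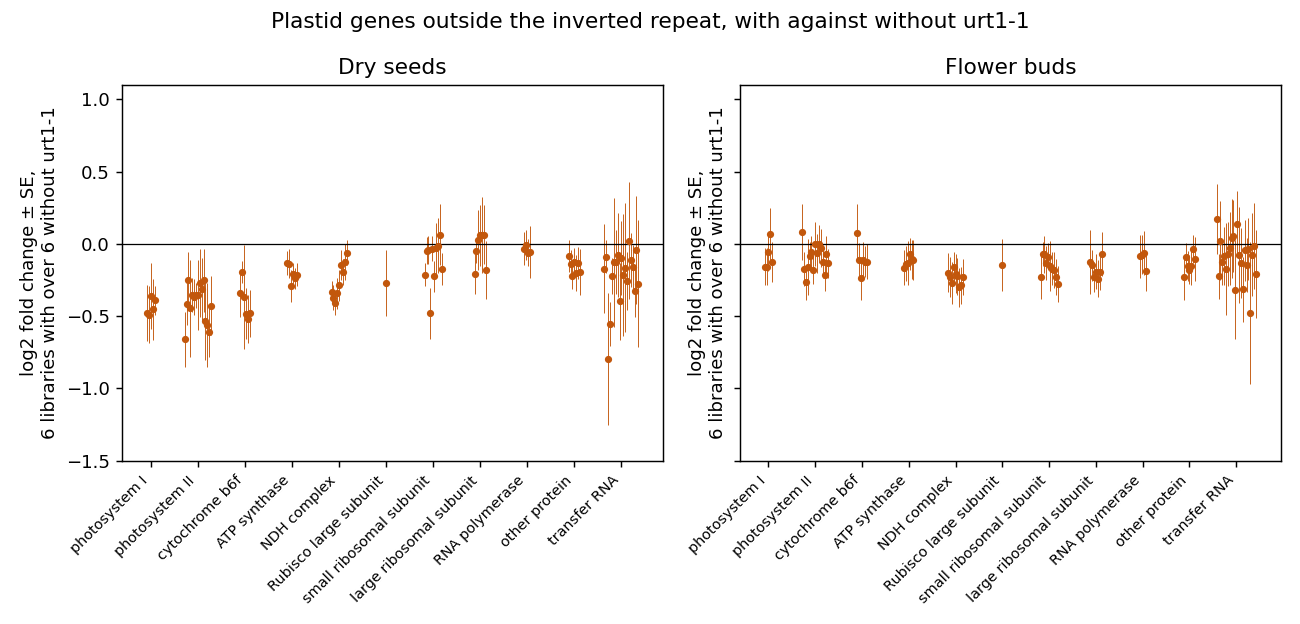
Log2 fold change ± SE of each tested member outside the inverted repeat by class, 6 libraries with over 6 libraries without urt1-1, in dry seeds (left) and flower buds (right), on the TMM scale. In seeds every photosynthesis gene plotted lies below 0 while polymerase genes lie near it, a placing that scaling to plastid mRNA shifts upward with all genes, and in flowers the classes lie closer together; edgeR without a replicate block called no gene plotted in either tissue.

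The single-mutant and double-mutant comparisons share their WT libraries, and edgeR called 0 members in each. In urt1-1 against WT seeds (0.0279% of all genes called) the members' median was −0.17 and 90 of 100 lay below 0. An unadjusted p under 0.05 held for 1238 of all 17939 genes and for 6 members. Of these ndhC at −0.43 ± 0.12 and ndhK at −0.35 ± 0.12 had the smallest. In libraries labelled heso1-4 urt1-1 against WT seeds (0.0557%) the median was −0.09. An unadjusted p under 0.05 held for 1546 of all 17939 genes and for 3 members. Of these ndhK at −0.31 ± 0.12 and ndhJ at −0.28 ± 0.11 had the smallest. In libraries labelled heso1-4 against WT seeds (0.0111%) the median was 0.15, and 80 of 100 lay above 0. There 675 of all 17939 genes and 4 members had an unadjusted p under 0.05, the members led by trnS ATCG00090 at 0.75 ± 0.22 (not called). In the last comparison photosynthesis genes had a median of 0.26 and gene expression genes 0.02, which turned to 0.09 and 0.17 without seed replicate 3 labelled heso1-4. In seeds labelled heso1-4 or heso1-4 urt1-1 against the others (0.0167%) the median was 0.13. An unadjusted p under 0.05 held for 379 of all 17939 genes and for 2 members. Those members were trnS ATCG00090 at 0.38 ± 0.15 and the repeat copy of the 23S ribosomal RNA gene ATCG01180 at −2.38 ± 1.09. DESeq2 called 0 members in these 4 comparisons. The upward values with the smallest p in urt1-1 seeds, trnP at 0.46 ± 0.64 and trnW at 0.29 ± 0.53, were within their errors, as were trnW at 0.42 ± 0.53 and trnD at 0.30 ± 0.41 in seeds labelled heso1-4 urt1-1.

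In flower buds, with against without urt1-1 (0.0175% of all genes called) edgeR called 0 of 111 members, and their median was −0.13. Of these members 4 had an unadjusted p under 0.05, as did 800 of all 22841 genes. Photosynthesis genes had a median of −0.14 and gene expression genes −0.13. All 12 NADH dehydrogenase-like genes lay below 0 there too, from −0.31 to −0.16, ndhC at −0.27 ± 0.14. The smallest p of a gene outside the repeat was that of ndhA at −0.29 ± 0.13, and of those above 0 that of trnH at 0.17 ± 0.24. psbA stood at 0.08 ± 0.20 and rbcL at −0.15 ± 0.18. DESeq2 called 1 member, the repeat copy of the 23S ribosomal RNA gene ATCG01180, which had 2, 0 and 0 counts in libraries labelled heso1-4 urt1-1 and 3, 1 and 0 in urt1-1, against 12, 260 and 49 in the libraries labelled heso1-4 and 14, 5 and 22 in WT. edgeR put it at −4.98 ± 0.96 with an adjusted p of 0.447. Against WT it was also the member with the smallest p in all 3 flower comparisons, at −3.06 ± 1.32 in urt1-1, −3.96 ± 1.45 in libraries labelled heso1-4 urt1-1 and 2.94 ± 1.02 in libraries labelled heso1-4. The medians against WT were −0.09 in urt1-1 (0.00876% of all genes called), −0.09 in libraries labelled heso1-4 urt1-1 (0.0131%) and 0.08 in libraries labelled heso1-4 (0.00876%). In that order 1, 2 and 1 members had an unadjusted p under 0.05, and 593, 646 and 623 of all 22841 genes. In flowers labelled heso1-4 or heso1-4 urt1-1 against the others (0.0131%) the median was 0.04. There 0 members had an unadjusted p under 0.05, and 502 of all 22841 genes. edgeR and DESeq2 called 0 members in these 4 comparisons.

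Whether a genotype acted differently in the tissues was tested as the difference between the seed and flower changes against WT. edgeR and DESeq2 called 0 of 112 members for urt1-1 (0% of all genes called by edgeR), libraries labelled heso1-4 (0.00425%) and libraries labelled heso1-4 urt1-1 (0.00425%). In that order 4, 4 and 1 members had an unadjusted p under 0.05, and 1292, 1015 and 1363 of all 23557 genes. The smallest p of the members in each comparison belonged to trnI (ATCG00930), a repeat copy with 0, 0 and 0.113 CPM in WT seeds and 0.563, 0.637 and 1.17 CPM in WT flowers. A difference between the tissues in the genotypes' effect on any plastid gene was thus not shown, nor was its absence.

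Shares of the 11 gene classes in plastid mRNA did not pass the threshold for either insertion in either tissue, 0 of 44 tests after adjustment. In seeds photosystem II genes made up 71.2% ± 2.14 of plastid mRNA with and 75.6% ± 3.57 without urt1-1 (SD, n = 6 each, exact permutation p = 0.0281, adjusted 0.367). tRNA gene counts equalled 3.73% ± 0.64 of plastid mRNA counts with and 2.95% ± 0.36 without urt1-1 (exact permutation p = 0.0195, adjusted 0.367). ATP synthase genes made up 3.55% ± 0.40 with and 2.86% ± 0.58 without, and polymerase genes 2.44% ± 0.40 with and 1.81% ± 0.60 without (exact permutation p = 0.0346 and 0.0541, adjusted 0.367 each). The remaining protein genes, clpP the most abundant of them, made up 5.69% ± 0.82 with and 4.43% ± 0.93 without (exact permutation p = 0.0411, adjusted 0.367). All these shares have psbA in the total, so the class differences are not independent of its lower share with urt1-1. Without psbA, ATP synthase genes ran from 9.10% to 10.85% with and 7.87% to 10.28% without urt1-1. tRNA gene counts ran from 9.06% to 11.94% and from 8.34% to 11.01%. These ranges overlap, as they do with psbA in the total. In flowers photosystem II genes made up 48.6% ± 3.58 with and 45.5% ± 2.63 without urt1-1 (exact permutation p = 0.136, adjusted 0.5).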

How the data were processed

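Raw read counts per gene, deposited as 1 table per tissue with 12 libraries each, were used. Counting used featureCounts 2.0.6 over whole gene spans, reverse strand, a read counting for every gene it overlaps, per the file headers; the recorded command is incomplete. Per the submitters' processing notes, HISAT2 2.2.1 and TAIR10 were used. Reads placed equally well in both repeat copies were largely absent from the counts, and their handling is not stated in the headers or labels. Libraries were prepared from 500 ng of total RNA with a strand-specific plant kit and sequenced as paired reads of 50 bases, per the labels' protocols.

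Members were matched to RefSeq by position and strand, 124 exactly, 5 by 1 end and 4 not; classes follow gene symbols, or the annotated RNA type where a symbol was missing. Members, lists and tests were chosen with earlier results of these data known. edgeR 4.0.16 (filterByExpr with a minimum count of 10, TMM, robust quasi-likelihood, 1 mean per group, 12 libraries per tissue or all 24) tested all genes, with Benjamini-Hochberg adjustment and a threshold of 0.05. Alternatives used DESeq2 1.42.0, other scalings, no filter, a replicate block, halved counts and each library left out. Shares were compared by exact permutation of 12 libraries. Scripts were tested on simulated data. For urt1-1 against WT, edgeR recovered 26% of simulated 1.5-fold and 72% of 2-fold changes in seeds. In flowers it recovered 8% and 52%, so a member not called is not shown to be unchanged. The labels call replicates biological; their chi-square per degree of freedom was 15.9 to 246, so each counted as 1. Pairing of same-numbered libraries was read from the data: their deviations correlated above 0.1 at every number within 3 of 6 pairs of seed groups and 5 of 6 pairs of flower groups. In seeds these were urt1-1 with WT (0.396, 0.203 and 0.507) and the libraries labelled heso1-4 urt1-1 with heso1-4 and with urt1-1 (lowest 0.117 and 0.105). The seed pairs that fell short were WT with heso1-4, WT with heso1-4 urt1-1 and heso1-4 with urt1-1 (lowest 0.088, 0.075 and 0.066), and in flowers WT with heso1-4 urt1-1 (0.06).

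Genes named are from the top 2 of each class per kilobase, the smallest p per direction and comparison, and the 4 largest share changes each way; psbC, psbE, psbL, psbJ, psbB, psbT, psbN, psbZ, psaC, petD, rps18, rpl33, rps2, rpoB, rpoC2, ATCG00290 and accD were named after their values were seen.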

Additional observations from a re-analysis of the deposited data

How the results depend on the processing

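In seeds with against without urt1-1, where 0 members were called, DESeq2 called 10, a replicate block 16 (14 of them photosynthesis genes, all 16 lower, 7 shared with DESeq2), no filter 3 (ndhC, ndhK and ATCG00290) and scaling to plastid mRNA 4, these higher (trnK, matK, rps4 and rpl20). Leaving out 1 library gave 0 to 7, the 7 without replicate 1 labelled heso1-4. Over all genes DESeq2 called 465, the block 1128, no filter 131 and scaling to plastid mRNA 7633. For fits with 1 library left out, calls over all genes are not given. In the further genotype comparisons the block called 0 members, as without it. In flowers with against without urt1-1 DESeq2 called 1. The seed share difference was −0.21 points without psbA, against −2.004 to −1.51 with single libraries left out. The flower share in libraries labelled heso1-4 or heso1-4 urt1-1 against the others turned from −0.06 to 0.26 without psbA and 0.13 with TMM-scaled counts, and ran from −0.72 to 0.59 with libraries left out. Scaling to plastid mRNA turned ndhK to 0.017 in urt1-1 seeds, ndhJ to 0.027 in seeds labelled heso1-4 urt1-1, ndhC to 0.10 and ndhK to 0.14 with against without urt1-1, and psaC to −0.019 in seeds labelled heso1-4 or heso1-4 urt1-1 against the others. Total-count scaling turned rpl20 and clpP to −0.10. With libraries left out, rpl2 ran from −0.045 to 0.256 and rpl22 from −0.089 to 0.176 in seeds with against without urt1-1. trnG ATCG00310 ran from −0.138 to 0.495 in flowers labelled heso1-4 urt1-1 against WT and from −0.073 to 0.245 with against without urt1-1. The causes were not tested. The tissue count of 97 members ran from 67 to 103 over the scalings and models and from 91 to 99 with libraries left out. Over all genes, seeds with against without urt1-1 gave 46 calls, against 465 by DESeq2, 1128 with the block, 131 without filter, 14 with total counts and 7633 scaled to plastid mRNA. For urt1-1 against WT seeds 5 became 90 with the block and 13 by DESeq2, and for seeds labelled heso1-4 urt1-1 10 became 206 and 72. In flowers DESeq2 gave 6, 11, 8 and 35 for urt1-1, labelled heso1-4 urt1-1 and labelled heso1-4 against WT and for with against without urt1-1, where edgeR gave 2, 3, 2 and 4. The further comparisons of genotypes gave 0 to 14 calls in any setting. Genes in the inverted repeat are limited by their few counts, and tRNA genes by their length.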
